A study of Mus musculus with 8 samples.

Results

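The interferon-induced gene families were read from 85 array probes of 61 gene names, out of 39429 probes of 30175 gene names in all. Members were every non-control probe whose gene name in the scanner files belongs to the Ifi, Oas, Irf, Gbp, Isg or Mx families or is a Stat factor of the interferon pathway, Usp18 or Rsad2. The rule itself used no measured value, though it was set with earlier results of these data known. The Ifi names covered 29 probes, the Oas names 17, the Gbp names 15, the Irf names 11 and the Isg names 7. Mx1 and Mx2 had 1 probe each, as did Stat2, Usp18 and Rsad2. The probes lay on 15 chromosomes, with 0 of them on chromosome 17, which holds Brd2.

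Striatal RNA was compared between 4 wildtype and 4 Brd2+/- samples from adult female mice. Both groups came from heterozygous by heterozygous matings at backcross generation 7 onto C57Bl/6J, which the submitters rate as 99% C57Bl/6J on average. The heterozygous mice carry 1 gene-trap insertion in Brd2, a chromatin reader that binds acetylated histones, and its position in the gene was not stated in the labels. No mouse was given interferon or an infection, as far as the labels say. The tissue label names prefrontal cortex together with striatum. Two-colour Agilent arrays carried 2 samples of the same genotype each, the odd replicates in Cy3 and the even ones in Cy5. The design text calls the samples biological replicates. Nothing says whether each was a single animal, so p-values speak of the spread among these 8 samples, which may be technical.

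Interferons are secreted proteins by which cells warn each other of viruses. Type I interferons bind the receptor pair Ifnar1 and Ifnar2, whose kinases Jak1 and Tyk2 activate Stat transcription factors. These join Irf9 and bind the interferon-stimulated response element in front of their target genes. Interferon gamma acts through Ifngr1, Ifngr2, Jak1 and Jak2 on Stat factors that bind the gamma-activated site. In uninfected brain, microglia, astrocytes, endothelial cells and neurons all keep a low tonic level of this programme.

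Promoter sequences of the families are shown because they carry the elements by which the genes are known as interferon targets. RefSeq promoters (build GRCm38.p6, 250 bases before to 50 bases after each start) were found for 42 of the 61 gene names, as 50 promoters. The response element was searched as GAAA, any 2 bases and GAAA, and the gamma-activated site as TTC, any 3 bases and GAA, on both strands. The first was present in 19 genes, or 38% of the members' promoters against 3.44% of 32851 promoters in the table. The second was present in 12 genes, or 24% against 8.30%. Median GC content was 51.5% in the members' promoters and 52.7% in all. In the following stretches, written 5′ to 3′ along the gene's own strand, capitals mark the matches, and adjoining matches run together. Isg15 (chr4:156200859-156200918, minus strand) holds 3 overlapping response elements in a row. Ifit1 (chr19:34640769-34640828, plus), Ifit3 (chr19:34583359-34583428, plus), Gbp3 (chr3:142559964-142560023, plus) and Oas1a (chr5:120907526-120907585, minus) hold 2 each. Gbp2 (chr3:142620573-142620632, plus) and Rsad2 (chr12:26456543-26456602, minus) hold 1 each. Irf1 (chr11:53769894-53769953, plus) and Gbp5 (chr3:142496844-142496903, plus) show a gamma-activated site.
Isg15: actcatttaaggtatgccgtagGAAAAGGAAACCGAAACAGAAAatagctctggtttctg
Ifit1: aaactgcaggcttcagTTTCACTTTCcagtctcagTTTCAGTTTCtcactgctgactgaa
Ifit3: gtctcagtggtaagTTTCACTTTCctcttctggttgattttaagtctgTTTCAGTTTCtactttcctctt
Gbp2: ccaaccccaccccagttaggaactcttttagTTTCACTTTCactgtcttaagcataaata
Gbp3: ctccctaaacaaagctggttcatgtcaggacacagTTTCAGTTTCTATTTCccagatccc
Oas1a: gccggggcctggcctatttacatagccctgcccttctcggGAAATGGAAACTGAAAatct
Rsad2: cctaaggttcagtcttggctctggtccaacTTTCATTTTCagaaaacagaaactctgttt
Irf1: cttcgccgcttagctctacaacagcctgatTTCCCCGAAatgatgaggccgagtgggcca
Gbp5: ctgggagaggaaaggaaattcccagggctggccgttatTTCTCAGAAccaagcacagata
The matches describe letters in these windows, and binding was not measured.

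**Figure D1:**
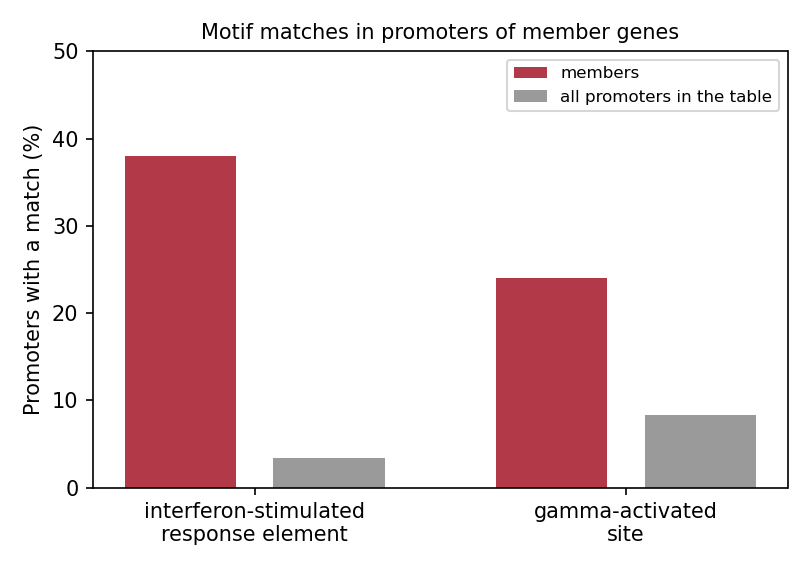
Share of promoters (percent, linear axis from 0) that hold a match to the response element or to the gamma-activated site, for the 50 promoters of member genes and for all 32851 promoters of the table. The members' bars stand at 38% and 24%, the bars for all promoters at 3.44% and 8.30%.

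Levels below are log2 single-channel intensities after background correction, normalization and removal of the mean dye effect of the probe, and values are listed for replicates 1 to 4. A probe was called well above background by the scanner software, sample by sample. This call was made for 37.7% to 47.6% of spots in the Cy3 samples and 65.9% to 75.5% in the Cy5 samples. The Brd2 probe A_55_P1958678 measured 12.95, 13.09, 12.50 and 12.80 in wildtype against 11.81, 11.97, 12.43 and 11.82 in heterozygous samples. This is a difference of -0.83, or 56.4% of wildtype (SE 0.188, exact two-sided permutation p = 0.0286, the smallest that 4 against 4 samples allow). The permutation shuffled single samples, although each array held 2 samples of 1 genotype, so it ignored the shared arrays. In the fit across all probes the adjusted p of this Brd2 probe was 0.402. The third heterozygous value lies just under the lowest wildtype value, and that sample is called the library labelled heterozygous replicate 3. The second Brd2 probe, A_55_P1953545, averaged 8.0 in wildtype against 8.29 in heterozygous samples (adjusted p = 0.65). Drd1, Ppp1r1b, Adora2a and Penk, which mark striatal projection neurons, were well above background in all 8 samples, and Drd2 in 4 wildtype and 3 heterozygous ones. The 13 projection neuron markers had a median difference of -0.38 (-0.13 without the library labelled heterozygous replicate 3), with 13 of 13 lower. The 11 cortical excitatory neuron markers had a median of 0.89, with 11 of 11 higher. Choroid plexus and meningeal markers had a median of 0.55 over 16 genes, or 0.12 without that library, whose own shift was 1.49. No marker list held a gene that passed the adjusted threshold, and the part of these shifts in the members' values was not tested. In bulk tissue, fewer cells of a type and less RNA per cell cannot be told apart.

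Of the 85 member probes, 17 were well above background in all 8 samples, 26 in the 4 Cy5 samples only, 13 in 4 to 7 samples that included a Cy3 sample, 16 in 1 to 3 samples and 13 in none. The 56 probes above background in at least 4 samples, of 46 gene names, were tested. That is 65.9% of the members, against 64.2% of all probes. Each of the 56 was above background in at least 2 samples of both genotypes, so no member entered through 1 genotype. In single samples, 21 to 29 member probes were above background in Cy3 and 58 to 71 in Cy5.

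Among the transcription factors, 6 of 11 Irf probes were above background in all 8 samples, among them those of Irf1, Irf2, Irf3, Irf8 and Irf9. Irf5 was so in Cy5 only, and Irf7, the factor that amplifies type I interferon production, in 2 samples, both heterozygous. Its levels overlapped (7.05 to 7.35 in wildtype, 7.25 to 7.48 in heterozygous samples), and the heterozygous Cy5 samples had more spots above background (74.7% and 75.5%) than the wildtype ones (65.9% and 68.9%). Irf4, a factor of lymphocytes, was at background in every sample. Among the effectors, the probes above background in all 8 samples were those of Isg15, Ifit3, Ifitm3, Ifitm7 (both probes), Ifi27l1, Ifi27l2a, Oas1b (2 of 3 probes) and Gbp5 (1 of 2). Of the 8 probes for DNA sensors of the Ifi200 group, 1 was tested. That was Ifi204, and both Ifi202b probes and 3 of the 4 Ifi203 probes were above background in no sample. Mx1, a GTPase that blocks influenza virus and is disrupted in most inbred mouse strains, was also above background in no sample. The other gene names never above background were Ifi202b, Irf4, Oas1g and Gbp8, which makes 5 of 61 together with Mx1. All 29 probes that were not tested have only a bound on their level in most samples. Negative control spots gave a median of 6.87 to 6.93 in Cy3 and 6.54 to 6.63 in Cy5. These medians were taken before removal of the dye effect, so they are not on the scale of the printed member values.

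**Figure D2:**
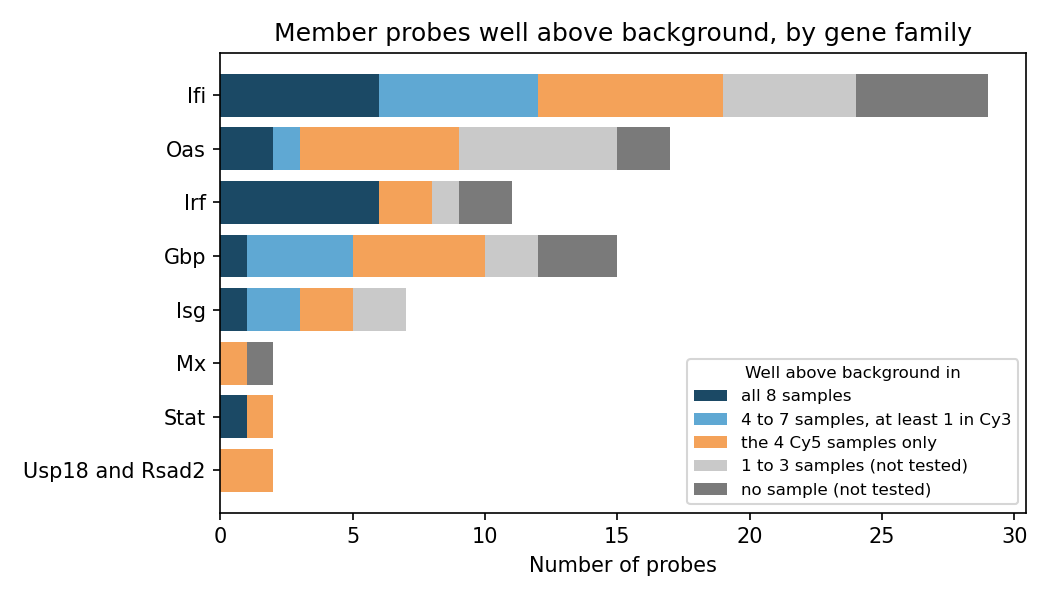
Number of member probes (linear axis) of each family by how many samples were well above background, from all 8 samples to none. The Irf bar is mostly dark (6 of 11 probes in all 8 samples), and the Usp18 and Rsad2 bar holds 2 probes detected in Cy5 only.

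The families did not differ between genotypes past the adjusted threshold at any probe. By limma with Benjamini-Hochberg adjustment over 25325 probes, 0 of 56 members had an adjusted p under 0.05, and the smallest was 0.376. Across all probes 1 passed, or 0.00395%, and that was a Btbd9 probe outside the families. The members' differences (heterozygous minus wildtype) ran from -0.50 to 0.67 with a median of 0.03, against -0.01 for all probes. Of the 56, 33 lay above 0 and 23 below (58.9% above, against 48.3% of all probes). Their standard errors ran from 0.086 to 0.394, with a median of 0.141. Differences well above this error also missed the threshold, such as Ifi27l2b at -0.50 and Brd2 at -0.83 (adjusted p of 0.376 and 0.402). Simulated data had the spreads of these samples, with 100 probes changed by a log2 of 1 and 100 by a log2 of 2. Of these, 57% and 92% were recovered. So many planted changes ease the adjusted threshold. The real fit passed 1 probe, so these shares may be too high for it. The count of 0 of 56 therefore does not show that the families were unchanged.

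An unadjusted p under 0.05 was reached by 8 of the 56, or 14.3%, against 8.76% of all probes. Of these, 4 were lower in heterozygous samples (all probes 4.31%) and 4 higher (4.45%). The count was 3 without wildtype replicate 2 (all probes 6.92%) and 2 without heterozygous replicate 4 (all probes 4.01%), which is not above the share of all probes. In 8 of 55 members measured in all samples, or 14.5%, the 4 values of one genotype did not overlap the 4 of the other, against 8.57% of all probes. The heterozygous values were the lower ones in 6 of them (all probes 4.80%) and the higher ones in 2 (3.77%).

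**Figure D3:**
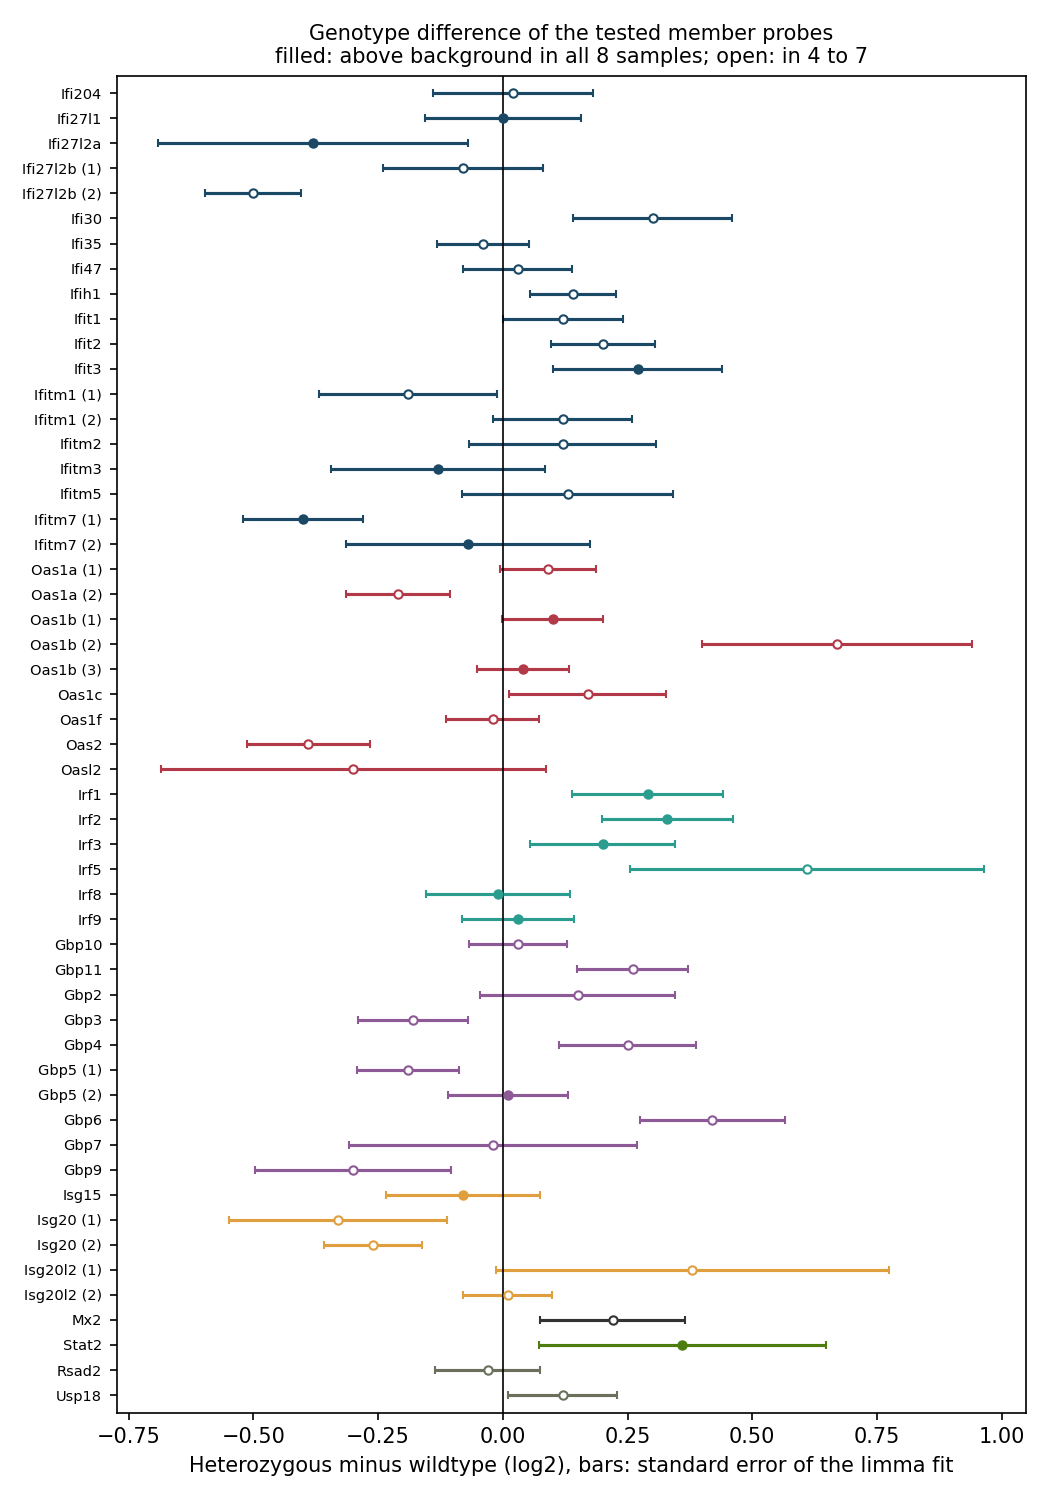
Heterozygous minus wildtype difference (log2, linear axis) of 53 of the 56 tested member probes, grouped by family, with the standard error of the limma fit as bars. Points spread on both sides of 0, from -0.50 (Ifi27l2b) to 0.67 (Oas1b), and none passed the adjusted threshold.

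The signal transducers of the pathway come first. Stat2, a factor of the type I route, measured 10.09, 9.73, 8.88 and 9.27 in wildtype against 9.83, 9.84 and 9.89 in heterozygous replicates 1 to 3. Its spot in heterozygous replicate 4 was marked as an outlier and left out of the fit. The wildtype values lay on both sides of the heterozygous ones, and the difference was 0.36 (SE 0.287, adjusted p = 0.715). Irf9, which binds DNA together with it, averaged 9.44 ± 0.07 against 9.48 ± 0.15 (SD, n = 4 each).

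Among the 8 tested Irf probes, 6 were above 0, with a family median of 0.13. Irf2, which competes with Irf1 at shared sites, measured 9.26, 9.07, 8.95 and 9.36 in wildtype against 9.50, 9.31, 9.60 and 9.56 in heterozygous samples. Heterozygous replicate 2 lay among the wildtype values, and the other three lay above them. The difference was 0.33 (SE 0.131, unadjusted p = 0.0347, adjusted p = 0.537), with 0.45 in Cy3 and 0.22 in Cy5. Irf1, a main activator under interferon gamma, measured 9.10, 9.44, 9.35 and 9.28 against 9.37, 9.47, 9.94 and 9.57. The groups overlapped, its highest value was in the library labelled heterozygous replicate 3, and the difference of 0.29 (SE 0.151) became 0.16 without it. Irf3, which starts interferon transcription after virus sensing, measured 11.41, 11.67, 11.76 and 11.79 against 11.69, 11.76, 12.16 and 11.79. The same library was the highest, the groups overlapped, and the difference was 0.20, or 0.07 without it. Irf5, a factor of inflammatory myeloid cells, had the widest wildtype spread of the family, from 6.55 to 8.45, against 8.11 to 8.17 in heterozygous samples. Irf8, a microglial factor, averaged 10.06 in both groups. The median shift of the 8 probes from the wildtype mean was -0.09, 0.00, 0.06 and 0.03 in the wildtype samples. In the heterozygous samples it was 0.10, 0.07, 0.29 and 0.16, highest in the library labelled heterozygous replicate 3. The highest wildtype shift and the lowest heterozygous one thus lay close together, while in the Ifi, Oas, Gbp and Isg families the shifts of the genotypes overlapped. The Irf median of 0.13 was 0.05 without wildtype replicate 1.

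Next are the sensors. Ifih1, the receptor for long double-stranded RNA known as MDA5, measured 8.05, 8.06, 8.10 and 8.03 in wildtype against 8.20, 8.21, 8.17 and 8.22 in heterozygous samples. All 4 heterozygous values lay above all 4 wildtype values, by a small difference of 0.14 (SE 0.086, adjusted p = 0.657). The probe was well above background in the Cy5 samples only (0.17), and not in the Cy3 samples (0.11). The other Ifih1 probe was above background in 2 samples only and was not tested. Ifi204, a DNA sensor of myeloid cells, had a difference of 0.02 (SE 0.160).

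The Oas enzymes make short oligoadenylates that switch on RNase L, which then degrades RNA. Of 17 probes, 9 were tested, 5 above 0 and 4 below, with a median of 0.04. Oas2 measured 7.88, 7.66, 7.91 and 7.65 in wildtype against 7.30, 7.57, 7.23 and 7.44 in heterozygous samples. Each heterozygous value was under each wildtype value, and the difference was -0.39 (SE 0.123, unadjusted p = 0.0136, adjusted p = 0.482). It was -0.63 in the Cy3 samples, where the probe was not well above background, and -0.15 in the Cy5 samples, where it was. Oasl2, a related ubiquitin-like protein, had a value of 6.61 in the library labelled heterozygous replicate 3 against 8.08 to 8.14 in the other heterozygous samples. Its probe was well above background in the Cy5 samples only, and that library was read in Cy3. Its difference was -0.30 (SE 0.386) with that library and 0.16 without it. Oas3 and Oasl1 were above background in 3 samples each and were not tested.

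Oas1b, the flavivirus resistance gene that is truncated in C57BL/6 mice, was read by 3 probes, whose sequences show which of them share bases. The first 30 bases of each follow (mm9, plus strand of chromosome 5), and capitals mark the part of a 42-base run that A_55_P1998962 (chr5:121274109-121274168) and A_55_P1959061 (chr5:121274126-121274185) have in common. Probe A_55_P1959064 (chr5:121273890-121273949) shares no such run with them.
A_55_P1998962: gtgataatggactgaactTCTGAACCTGTA
A_55_P1959061: gTCTGAACCTGTAAGCCAACCCCAATTAAA
A_55_P1959064: cagaaggagaatattatggtttgtatatgg
The first of these measured 13.71, 13.76, 13.64 and 13.62 in wildtype against 13.71, 13.67, 13.77 and 13.76 in heterozygous samples, a difference of 0.04 (SE 0.092). The second differed by 0.10 (SE 0.101). The third measured 7.49, 8.09, 8.79 and 8.57 in wildtype against 8.95, 8.83, 9.05 and 8.78 in heterozygous samples. Its wildtype values were widely spread, and wildtype replicate 3 lay just above the lowest heterozygous value. The difference of 0.67 (SE 0.271, unadjusted p = 0.0392, adjusted p = 0.546) was not shared in size by the other two probes. It was 0.35 without wildtype replicate 1, which held the lowest value, and 0.92 without wildtype replicate 3. The 2 Oas1a probes differed in sign (-0.21 and 0.09).

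Proteins of the Ifit group bind viral RNA and hold back its translation. Ifit1, Ifit2 and Ifit3 lay 0.12, 0.20 and 0.27 above wildtype, 3 of 3 in the same direction, with adjusted p of 0.779, 0.612 and 0.662. Ifit3 measured 10.33, 10.14, 10.33 and 10.24 in wildtype against 10.30, 10.25, 10.61 and 10.94 in heterozygous samples. Heterozygous replicates 1 and 2 lay within the wildtype range and the other two above it.

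The Ifitm proteins sit in membranes and block virus entry, apart from Ifitm5, which is known from bone. Of 7 tested probes, 4 were below 0 and 3 above, with a median of -0.07. Ifitm7 was read by a pair of probes. A_55_P1955876 measured 11.00, 11.05, 10.73 and 10.88 in wildtype against 10.55, 10.32, 10.57 and 10.61 in heterozygous samples. The groups do not overlap, and the difference was -0.40 (SE 0.120, unadjusted p = 0.0101, adjusted p = 0.463). A_55_P2097161 gave -0.07 (SE 0.244), with overlapping groups. Ifitm3, the broadest antiviral member, averaged 10.59 ± 0.29 against 10.46 ± 0.35 (SD, n = 4 each). Its difference was -0.53 in Cy3 and 0.27 in Cy5.

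Ifi27-like proteins are small hydrophobic proteins of membranes such as those of mitochondria. None of their 4 tested probes lay above 0, with a median of -0.23. The pair of Ifi27l2b probes lie on the minus strand of chromosome 12 (mm9), and their first 30 bases are given because only one of them separated the groups.
A_55_P2085779: gtacttcagagaatgagggtacttcaaaac
A_55_P2085776: gtaggcactgtgctccctaccaggacaact
A_55_P2085779 (chr12:104689132-104689191) measured 7.68, 7.75, 7.70 and 7.77 in wildtype against 7.21, 7.11, 7.31 and 7.28 in heterozygous samples. All heterozygous values were under all wildtype values. The difference was -0.50 (SE 0.096, unadjusted p = 0.000864), with -0.42 in Cy3 and -0.57 in Cy5, and its adjusted p of 0.376 was the smallest of the members. A_55_P2085776 (chr12:104695364-104695423) differed by -0.08 (SE 0.161), with overlapping groups. Both were above background in the Cy5 samples only. Ifi27l1, now named Ifi27, measured 12.55, 12.73, 13.02 and 12.93 in wildtype against 12.63, 12.96, 13.03 and 12.61 in heterozygous samples. Its groups overlapped fully, with a difference of 0.00 (SE 0.157). Ifi27l2a differed by -0.38 (SE 0.311), with overlapping groups.

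Of the remaining Ifi genes, Ifi30, a lysosomal thiol reductase that serves antigen processing, measured 8.28, 8.28, 8.81 and 8.75 against 8.70, 8.90, 8.93 and 8.78. The groups overlapped, and the difference was 0.30 (SE 0.159, adjusted p = 0.621). Ifi35 and Ifi47, the latter a GTPase, differed by -0.04 and 0.03. The Ifi family as a whole had 10 tested probes above 0 and 9 below, with a median of 0.02.

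Guanylate binding proteins are GTPases that attack the vacuoles of intracellular pathogens. Their 10 tested probes had a median of 0.02, or 0.12 without heterozygous replicate 1, with 6 above 0. The genes form a pair of clusters. On chromosome 3, 2 of 5 tested probes lay above 0 (median -0.02), and on chromosome 5, 4 of 5 (median 0.25). The difference between the clusters was not tested. Gbp6 on chromosome 5 measured 7.48, 7.36, 7.34 and 7.48 in wildtype against 7.63, 7.60, 8.05 and 8.07 in heterozygous samples. All heterozygous values lay above the wildtype ones, those of array 4 the furthest, and the difference was 0.42 (SE 0.145, unadjusted p = 0.0197, adjusted p = 0.499). It was 0.42 in the Cy5 samples, and 0.43 in the Cy3 samples, where the probe was not well above background. The dyes share their arrays, so these differences are not independent. Gbp11 measured 7.38, 7.33, 7.14 and 7.45 against 7.68, 7.61, 7.62 and 7.44. Heterozygous replicate 4 lay within the wildtype range, and the difference was 0.26 (SE 0.112, unadjusted p = 0.0478, adjusted p = 0.562). For Gbp11 it was 0.39 in the Cy3 samples, where the probe was not well above background, and 0.13 in the Cy5 samples, where it was. Some Gbp sequences of chromosome 5 are near copies, and 4 member probes, of the Gbp6 and Gbp10 and of the Oas1a and Oas1g pairs, list more than 1 RefSeq gene. On chromosome 3, Gbp3 measured 8.85, 8.83, 9.13 and 9.09 against 8.81, 8.79, 8.75 and 8.83. The groups meet at 8.83 after rounding and count as not overlapping, and the difference was -0.18 (SE 0.110). The Gbp5 probe A_52_P327664 measured 8.50, 8.65, 8.54 and 8.49 against 8.29, 8.23, 8.47 and 8.42, with no overlap (-0.19, SE 0.103, limma adjusted p = 0.625). The other Gbp5 probe, A_55_P2145059, measured 9.84, 9.70, 9.75 and 9.79 against 9.94, 9.67, 9.57 and 9.93, with full overlap (0.01, SE 0.120).

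Mx2, the other Mx GTPase, measured 7.04, 7.47, 7.61 and 7.49 in wildtype against 7.64, 7.56, 7.75 and 7.52 in heterozygous samples. Wildtype replicate 1, a Cy3 sample, was the lowest, and the difference was 0.22 (SE 0.145, adjusted p = 0.678). For Mx2 it was 0.37 in the Cy3 samples, where the probe was not well above background, and 0.06 in the Cy5 samples, where it was.

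Isg15 is a ubiquitin-like protein that is attached to other proteins after interferon, and Usp18 removes it again and damps the receptor. Isg15 measured 9.45, 9.79, 9.77 and 9.63 in wildtype against 9.33, 9.49, 9.93 and 9.57 in heterozygous samples. Both the lowest and the highest value were heterozygous, and the difference was -0.08 (SE 0.155, adjusted p = 0.894). Usp18 measured 7.70, 7.77, 7.84 and 7.87 against 7.81, 7.78, 8.06 and 7.99, a difference of 0.12 (SE 0.109) with overlap. Rsad2, also called viperin, makes a chain-ending nucleotide that stops viral polymerases. It measured 7.84, 7.59, 7.63 and 7.65 against 7.64, 7.75, 7.53 and 7.64, a difference of -0.03 (SE 0.105).

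Isg20 is an exonuclease that degrades single-stranded RNA. Its probe A_66_P112573 measured 8.36, 8.44, 8.53 and 8.45 in wildtype against 8.13, 8.28, 8.23 and 8.08 in heterozygous samples. The groups do not overlap, and the difference was -0.26 in both dyes (SE 0.098, unadjusted p = 0.0296, adjusted p = 0.523). The probe was well above background in all 4 Cy5 samples but in only 1 Cy3 sample. The second probe, A_55_P2173892, measured 8.19, 7.55, 8.15 and 7.79 against 7.34, 8.08, 7.34 and 7.60. Its groups overlap, and its difference of -0.33 (SE 0.218) was -0.83 in the Cy3 samples, where it was not well above background, and 0.17 in the Cy5 samples. Isg20l2, a nucleolar relative that works on ribosomal RNA, differed by 0.38 (SE 0.394) and 0.01 (SE 0.089) at its tested probes. The 5 tested Isg probes had a median of -0.08, or 0.03 without heterozygous replicate 1. Leaving out the library labelled heterozygous replicate 3 instead gave -0.21.

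**Figure D4:**
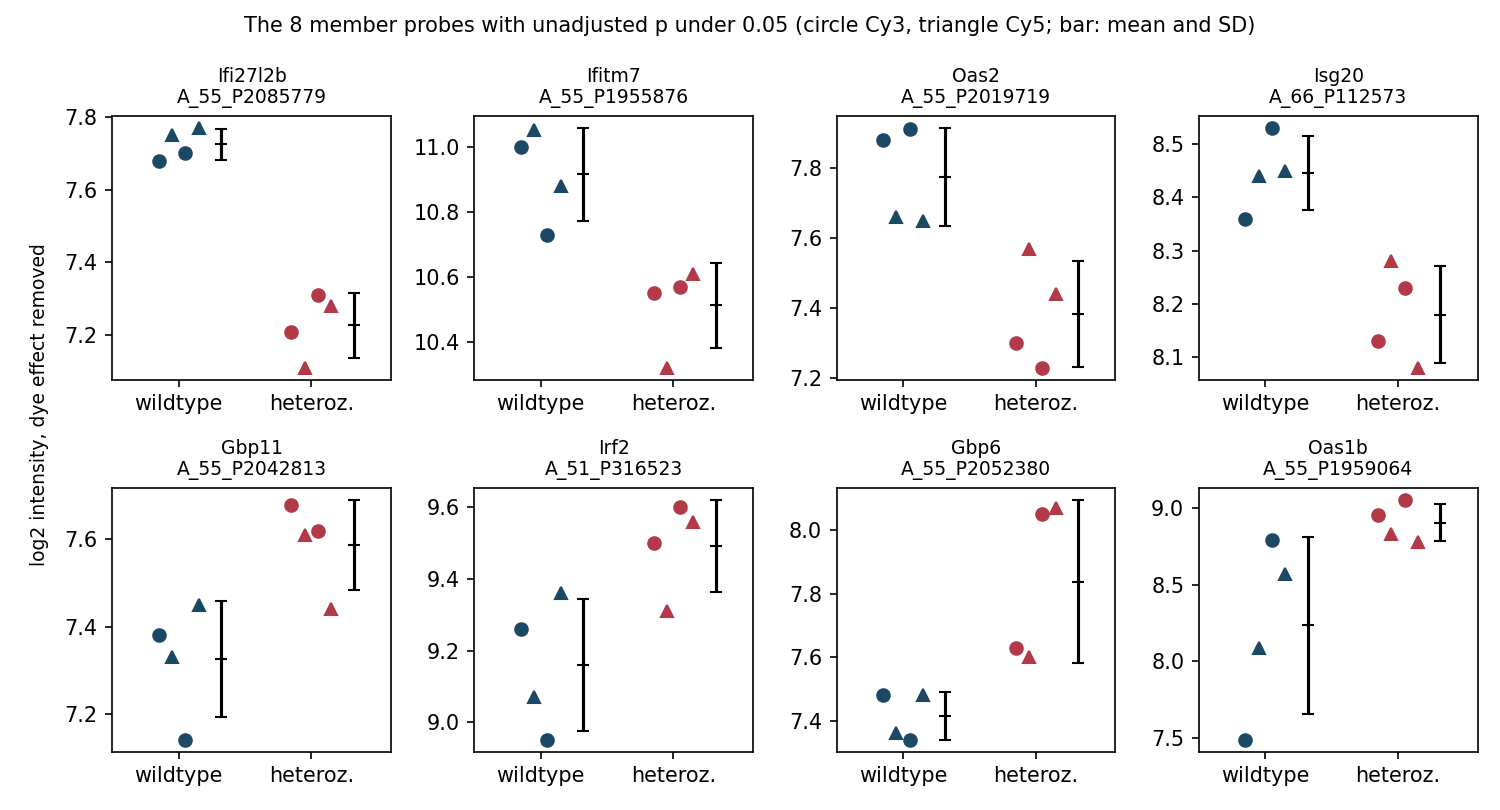
Dye-corrected log2 intensity (linear axes, each panel with its own range that does not start at 0) of the 8 member probes with an unadjusted p under 0.05, by genotype, circles for Cy3 and triangles for Cy5 samples, with mean and SD (n = 4) as bars. Ifi27l2b, Ifitm7, Oas2, Isg20 and Gbp6 show no overlap of the groups, and Gbp11, Irf2 and Oas1b do.

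Among 9 genes with 2 or more tested probes, 5 had 1 sign throughout and 4, among them Gbp5, Ifitm1 and Oas1a, had both. The Ifitm1 probes share a run of 54 bases and still gave -0.19 and 0.12. Members with a response element in the promoter had a median difference of 0.09 over 17 tested probes, and those without it 0.02 over 20. With a gamma-activated site the median was -0.02 over 13 probes, and without it 0.12 over 24. None of these splits was tested.

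The 2 dyes, which share the same arrays, were also read separately. In the Cy5 samples alone, which compare wildtype replicates 2 and 4 with heterozygous replicates 2 and 4, 41 of 56 members lay above 0, with a median of 0.07. In the Cy3 samples, 29 of 56 did, with a median of 0.01. Of all 25325 probes, 12494 lay above 0 in Cy5 and 12154 in Cy3. Of the 26 members above background in Cy5 only, 21 lay above 0 in Cy5, and 14 in Cy3. The same count was not made over all probes of that detection class, so it cannot be called particular to the members. For the 17 members above background in all 8 samples, the counts were 10 in either dye. In Cy5, 5 of 56 members had an unadjusted limma p under 0.05 (all probes 10.1%), and none of them passed after adjustment. Oasl2 (0.42), Irf5 (0.58) and Gbp2 (0.44) were higher, with p of 0.0179, 0.0181 and 0.0478. Ifi27l2b (probe A_55_P2085779, -0.57) and Ifitm7 (probe A_55_P1955876, -0.50) were lower, with p of 0.00696 and 0.0235.

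**Figure D5:**
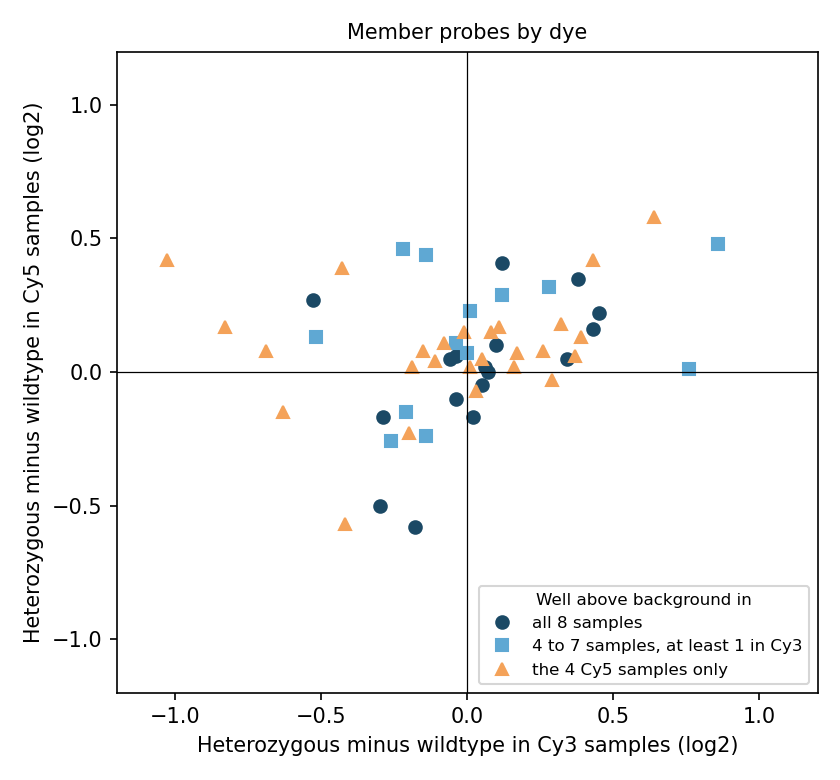
Heterozygous minus wildtype difference (log2, linear axes) of each tested member in the Cy3 samples (x) and the Cy5 samples (y), by detection class. Oasl2 lies at -1.03 and 0.42, and the members above background in Cy5 only (triangles) lie mostly above 0 on the y axis (21 of 26). The like count for all probes of that class was not made.

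The rest of the pathway gave 0 genes past the adjusted threshold in any list, against the 0.00395% of all probes. Of 15 interferon genes, 9 were tested, 8 of them at or below 0 (median -0.13), while Ifnb1 and Ifng were above background in no sample. Ifna7 differed by -0.23 (SE 0.105) and Ifnl3 by -0.27 (SE 0.163). Of 8 tested receptors and kinases, 5 lay above 0 (median 0.08, or 0.04 without the library labelled heterozygous replicate 3). The type I receptor chains Ifnar1 and Ifnar2 differed by -0.14 (SE 0.115) and 0.06 (SE 0.202), and the gamma chains Ifngr1 and Ifngr2 by -0.17 (SE 0.219) and 0.34 (SE 0.215). Ifngr2 was highest, at 11.47, in the library labelled heterozygous replicate 3, and its difference was 0.09 without it. Jak1, Jak2 and Tyk2 differed by 0.09, 0.00 and 0.15. Of 17 tested sensors and adaptors, 8 lay above 0 (median -0.03). Tlr3, the endosomal receptor for double-stranded RNA, measured 7.57, 7.52, 7.39 and 7.47 against 7.99, 7.71, 7.74 and 7.99. The groups do not overlap, and the difference was 0.37 (SE 0.112, adjusted p = 0.474). The adaptor Myd88 differed by 0.24 (SE 0.112).

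Of 11 negative regulators, 10 lay above 0 (median 0.09), and those with the smallest p were Pias4 (0.21, SE 0.125) and Irgm1 (0.86, SE 0.420), whose wildtype values ran from 7.20 to 9.29. Of 45 other interferon-induced genes, 28 lay above 0 (median 0.06, or 0.00 without the library labelled heterozygous replicate 3). Ido1, the tryptophan-degrading enzyme known as a target of interferon gamma, measured 9.87, 9.59, 9.72 and 9.89 in wildtype against 8.64, 8.60, 8.56 and 8.71 in heterozygous samples. All heterozygous values were lower, by -1.14 (SE 0.108, adjusted p = 0.0816), which misses the threshold. Phf11b differed by 1.06 (SE 0.287, adjusted p = 0.442), with 0.34 in Cy5 and 1.78 in Cy3, where it was not well above background. Of 20 tested antigen presentation genes, which interferon gamma is known to raise, 14 lay above 0 (median 0.18, or 0.11 without that library). Psmb10, an immunoproteasome subunit, averaged 12.28 ± 0.19 against 12.97 ± 0.46 (SD, n = 4 each). The groups do not overlap, and the difference of 0.70 (SE 0.231, adjusted p = 0.491) was 0.44 without the library labelled heterozygous replicate 3. H2-DMa differed by -0.34 (SE 0.179).

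Cell types that carry much of this programme showed the following. Microglial markers, 19 of 19 tested, had a median difference of -0.03 with 9 above 0, and their summed level was 16.71 to 16.98 in wildtype and 16.74 to 16.96 in heterozygous samples. Ctss and Aif1 differed by -0.33 and -0.41. Endothelial markers had a median of 0.03 over 14 genes, with summed levels of 15.33 to 15.39 and 15.28 to 15.38, and with Tek at 0.37 and Kdr at -0.40. Of 14 blood leukocyte markers, 8 were tested (median -0.05), Ptprc at 0.30 and Cd3e at -0.47, and Ccr2, Cd3d, Cd3g and Ms4a1 were above background in no sample. Red cell markers had a median of -0.47 with 6 of 6 below 0. Astrocyte and oligodendrocyte markers had medians of -0.01 and 0.19 over 12 genes each, or -0.07 and 0.07 without the library labelled heterozygous replicate 3, whose own oligodendrocyte shift was 0.57. The part of any of these lists in the members' values was not tested.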

How the data were processed

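The deposited scanner files hold spot intensities extracted with Agilent Feature Extraction 10.7.3.1 (design 026655, probe positions in mm9), per the file headers. Both samples of an array were deposited as the same scan, and each was read from its own channel. The deposited value table, used only as an alternative, holds a ratio of each spot's background-subtracted median intensity to its column's median, with no log and no centring of genes, as found by setting it against the scanner values.

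Mean intensities were corrected in limma 3.58.1 under R 4.3.3 by normexp (offset 50), then by loess and Aquantile, and split into log2 values per channel. The deposited intensities of outlier spots (230 to 978 per sample) were left out, and 0 spots were saturated. Spots of a probe were averaged. Probes well above background in at least 4 of 8 samples were kept, and 25325 of these 25338 had a fitted p. The model held genotype and dye, with the array as a random block (consensus correlation -0.0097). Benjamini-Hochberg adjustment ran over all tested probes, with a threshold of 0.05. Printed values of single samples have the probe's dye effect removed. The script was tested on simulated data. In place of sequencing depth, the number of arrays (4) limits the precision.

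The members, the 15 pathway and marker lists and the tests were chosen with earlier results of these data known. Values in every sample were given for the probe with the highest mean and the 2 tested probes with the smallest p of each family (all where 4 or fewer). The 2 genes with the smallest p of the pathway, microglial, endothelial and leukocyte lists, the receptors and their kinases were named, and the other marker lists are given by their medians. Ifi30, Ifih1, Ifit3, Gbp3 and Gbp5 were added after their values were seen, as were other members named by their difference. RefSeq matched 69 probes by accession, 3 by a listed accession and 13 by symbol. Alternatives were the processed signals, the value table, other filters and blocks, single dyes and leaving out each sample. Some members are counted with their families and are not reported here singly.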

Additional observations from a re-analysis of the deposited data

Results flagged for a closer look

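Of 126 groups of 4 samples checked with Dixon's test at its 95% critical value, 7 held a sample that stood apart, and chance flags about 1 in 20. Oasl2 in the library labelled heterozygous replicate 3 was at 6.61, against 8.08 to 8.14 in the other heterozygous samples. The same library was the highest for Oas1a (probe A_55_P1998942, 7.69 against 7.53 to 7.55) and Irf5 (8.17 against 8.11 to 8.12). That library was read in Cy3, and the Oasl2, Oas1a and Irf5 probes were well above background in the Cy5 samples only. Ifitm2 was at 9.38 in heterozygous replicate 2, against 8.69 to 8.77 in the others. Ifi47 was at 8.60 in wildtype replicate 3, against 8.39 to 8.43. Ifit2 was at 7.92 in wildtype replicate 4, against 8.07 to 8.09. The median shift of the Ifi family was -0.09 in heterozygous replicate 1, against 0.04 to 0.07 in the other heterozygous samples.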

How the results depend on the processing

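Under all 22 alternatives, 0 member probes had an adjusted p under 0.05, also at a threshold of 0.1, and the members' median stayed between 0.01 and 0.07. The 8 probes with an unadjusted p under 0.05 kept their direction under each alternative that tested them. The count with an unadjusted p under 0.05 (8) was 4 with the scanner software's processed signals (all probes 6.39%), 3 with the value table (5.32%), 1 of 17 for probes above background in all 8 samples (8.29%), 5 of 46 with the brightest probe per gene (8.60%), 2 in Cy3 (3.11%), 5 in Cy5 (10.1%), and 2 to 10 leaving out single samples. The Ifi median (0.02) was -0.10 for probes above background in all samples and 0.11 in Cy5. The Oas median (0.04) was -0.04 with the processed signals, -0.04 with the value table and -0.12 with the brightest probe. The Irf median (0.13) ranged from 0.05 (without wildtype replicate 1) to 0.18 leaving out single samples. The Gbp median (0.02) was -0.09 in Cy3 and -0.02 to 0.12 leaving out single samples (0.12 without heterozygous replicate 1). The Isg median (-0.08) ranged from -0.21 (without heterozygous replicate 3) to 0.03 (without heterozygous replicate 1). The causes were not tested. The share of members above 0 (58.9%) was 51.8% with the processed signals and 73.2% in Cy5. Deviations of same-numbered samples of the genotypes had correlations of 0.16, -0.30, -0.19 and -0.26, against -0.33 to 0.45 in differently numbered pairs. These values cannot show what same-numbered samples share. With the replicate number as a block, 7 members had an unadjusted p under 0.05 (all probes 8.92%) and 0 probes of all passed after adjustment. Low signal over background in Cy3 limits the 26 members detected in Cy5 only.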

Other observations

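Untested members at the edge of detection held single high values in samples of both genotypes. An Oas1h probe, A_55_P2149492, measured 6.66, 7.00, 6.48 and 7.12 in wildtype against 9.27, 7.63, 6.56 and 7.21 in heterozygous samples, so heterozygous replicate 1 stood above the rest. The untested Ifih1 probe A_55_P1978987 measured 6.75, 6.90, 6.31 and 6.48 in wildtype against 6.38, 7.07, 8.08 and 7.08 in heterozygous samples, with its highest value in the library labelled heterozygous replicate 3. Oas3 measured 8.47 in wildtype replicate 3 and 5.84 to 7.43 in the other samples. All were chosen after their values were seen.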
